A study of Saccharomyces cerevisiae with 17 samples.

Results

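The 10 genes described here encode the oxidative steps of the citric acid cycle in Saccharomyces cerevisiae, from citrate synthase to succinyl-CoA ligase. They are CIT1 (YNR001C), CIT3 (YPR001W), ACO1 (YLR304C), IDH1 (YNL037C), IDH2 (YOR136W), KGD1 (YIL125W), KGD2 (YDR148C), LPD1 (YFL018C), LSC1 (YOR142W) and LSC2 (YGR244C). Genes were taken by name from the array annotation with no filter on their values, but the set was chosen with earlier results of these data known. All 10 were found among the 5449 genes measured, each with 1 probe set. A pair of industrial wine yeasts, VIN13 and BM45, fermented must of the grape Colombar with little oxygen, and total RNA was taken on days 2, 5 and 14. Those days stand for exponential growth, early stationary phase and late stationary phase. VIN13 had 3 arrays on each day, and BM45 had 2 arrays on day 2, 3 on day 5 and 3 on day 14. All groups shared the must and the oxygen supply, and no genotype beyond the strain name and no treatment was given.

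The citric acid cycle takes up acetyl-CoA in the mitochondrion, oxidises it to carbon dioxide and passes the electrons to NADH and succinate dehydrogenase. In S. cerevisiae most of its genes are repressed by glucose and are switched on when sugar runs out, through the Hap complex, whose activating subunit is Hap4, while the Rtg1 and Rtg3 pair drives the first steps up to isocitrate dehydrogenase when respiration is weak. In fermenting cells the oxidative steps still supply 2-oxoglutarate, from which glutamate and lysine are made.

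Levels are the deposited intensities on a log2 scale after adding 16. A change is the difference between 2 group means on that scale with its standard error, so that a fold derived from it understates the change of dim genes. Changes were tested with limma across all 5449 genes, and a gene is called where its p, adjusted by Benjamini and Hochberg, was under 0.05. Probe sets differ in brightness for the same amount of RNA, so levels are compared between arrays for a gene and not between genes. The number of arrays limits the precision, and nothing in the labels says that replicates came from separate fermentations: a p-value here speaks of the scatter among these arrays, which may be technical. Fewer cells of a type and less RNA per cell cannot be told apart in RNA of a whole culture.

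Array quality touched the genes of interest unevenly. The signal of the actin control ACT1 at its 3′ end over that at its 5′ end, which rises as RNA breaks down, averaged 3.42 ± 1.96 on day 2, 2.07 ± 0.688 on day 5 and 1.97 ± 0.375 on day 14 in VIN13 (SD, n = 3 each). In BM45 it averaged 3.81 ± 2.15 on day 2 (n = 2), 1.52 ± 0.0867 on day 5 and 1.43 ± 0.0332 on day 14 (n = 3 each). A set of 4 arrays stood apart from their groups in a shared direction: replicate 1 of VIN13 on day 2, replicate 3 of VIN13 on day 5 and again on day 14, and replicate 4 of BM45 on day 2. Their ACT1 ratios were 2.37 to 5.55, against 1.40 to 3.003 on the other 13 arrays. Leaving out all 4 leaves replicate 2 as the only BM45 array of day 2. They were picked because they deviated, so calls made without them are not a separate check of a change. Within groups, the citric acid cycle genes fell by a median of 0.24 on the log2 scale for each doubling of the ACT1 ratio, against 0.05 for the median gene, and IDH1 was the steepest at 0.50. The 9 spore markers summed to an intensity of 6803 to 11030.1 over the VIN13 arrays and 8276.1 to 11245.5 over the BM45 arrays, and 4 to 6 of them had a mean above the background bound in each group. Most of each sum came from SPS100, at 12.32 to 13.35 on the log2 scale, while no other spore marker exceeded 10.31. All 5 growth markers of ribosome assembly fell between day 2 and day 14 in both strains. The stationary phase markers were mixed. Of these 5 genes, 3 rose and 1 fell in VIN13 over those days, and 2 rose and 1 fell in BM45. The gene that fell was CTT1, at -0.36 in VIN13 (limma, adjusted p = 0.0129) and -1.26 in BM45 (limma, adjusted p = 3.51e-07). Of all genes 28.2% rose and 35.5% fell in VIN13, and 28.8% rose and 46.6% fell in BM45.

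Between day 2 and day 5 the genes from aconitase to the first 2 subunits of 2-oxoglutarate dehydrogenase rose in both strains. From day 2 to day 5, 6 of 10 genes rose and none fell in VIN13, where 15.5% of all genes rose and 22.2% fell. Of the same 10 genes, 6 rose and none fell in BM45 over those days, where 22.8% of all genes rose and 33.9% fell. That none fell depended on the setting. With the ACT1 ratio added to the model LSC1 fell in BM45, at -0.57 (limma, adjusted p = 0.00527). Without the 4 arrays that stood apart the changes were -0.30 for CIT3 and -0.34 for LSC1 in BM45, and -0.385 for LSC2 in VIN13. ACO1, IDH1, IDH2, KGD1 and KGD2 rose in both strains. The remaining called gene was CIT3 in VIN13 and CIT1 in BM45. These calls were lost in 10 of 29 alternatives for CIT3 and 2 of 29 for CIT1. The median change of the 10 genes was 0.46 in VIN13, against -0.03 for all genes, and 0.75 in BM45, against -0.07 for all genes.

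From day 5 to day 14, CIT3 rose and LSC1 and LSC2 fell in VIN13, 1 of 10 up and 2 of 10 down, where 19.0% of all genes rose and 24.5% fell. In BM45, CIT3 and IDH2 rose and LPD1, LSC1 and LSC2 fell, 2 of 10 up and 3 of 10 down, where 23.9% of all genes rose and 43.1% fell. These shares of the genes lie close to those of all genes, and the median change was -0.06 in VIN13, against -0.03 for all genes, and 0.03 in BM45, against -0.19 for all genes. Between day 2 and day 14, 5 genes rose and 2 fell in VIN13, where 28.2% of all genes rose and 35.5% fell. Over the same interval 7 rose and 3 fell in BM45, where 28.8% of all genes rose and 46.6% fell, so that every gene of the set was called there. Once each array was centred on its median gene, more genes were called higher: 20.6% rose and 19.0% fell in VIN13 on day 5 against day 2. The BM45 shares after centring were 32.1% and 26.9% on day 5 against day 2, 32.9% and 34.7% on day 14 against day 5, and 41.3% and 37.3% on day 14 against day 2. Of the 10 genes, centring left 3 up and 2 down in BM45 on day 14 against day 5. Quantile normalization left 5 up and 1 down in VIN13 on day 5 against day 2, where 18.8% of all genes rose and 21.5% fell. It left 2 up and 2 down in VIN13 on day 14 against day 5, near the 22.3% and 23.3% of all genes.

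**Figure D1:**
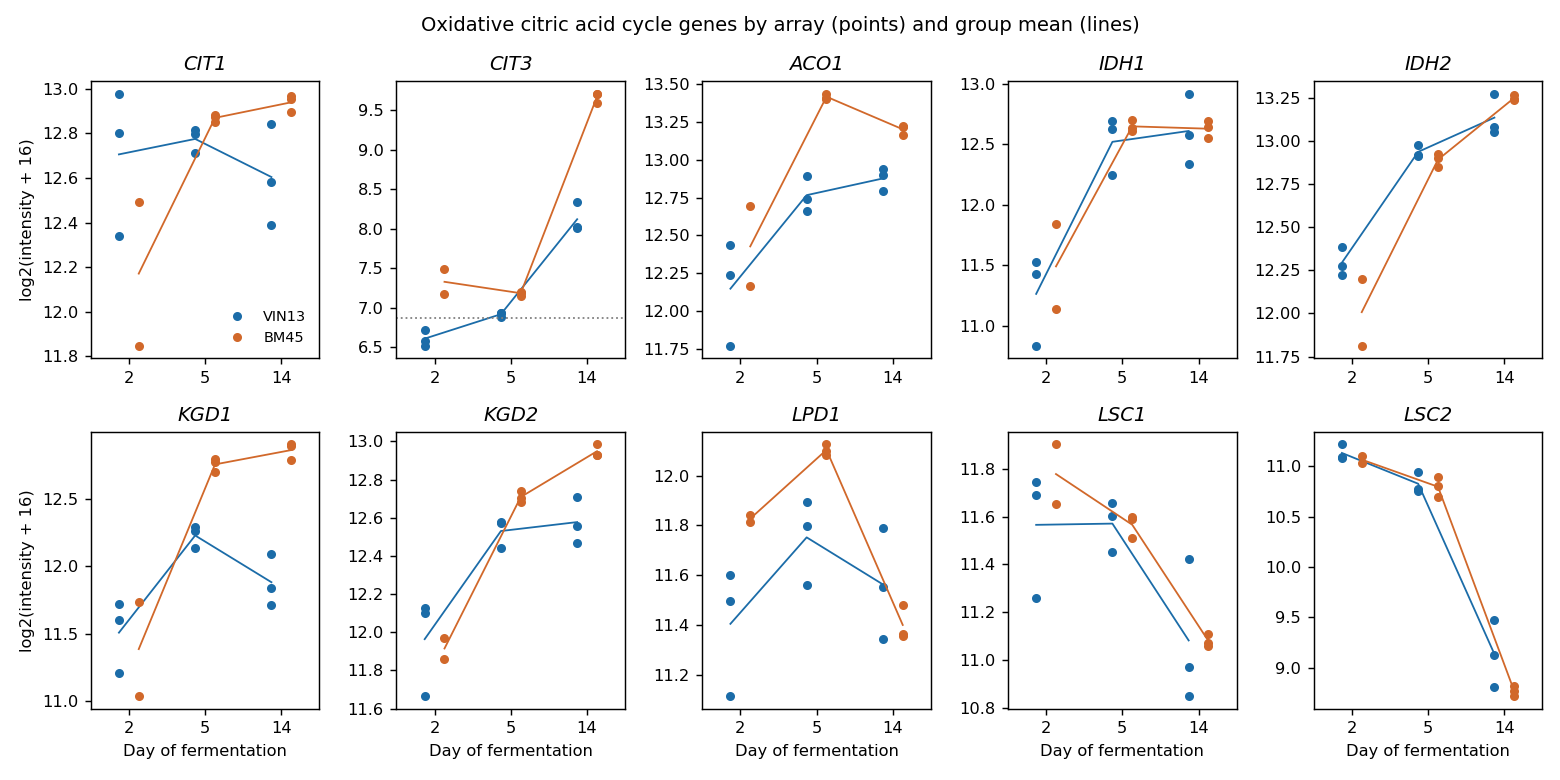
Level of each gene on every array, as log2(intensity + 16), by day of fermentation, with VIN13 in blue, BM45 in orange, lines through the group means and, for CIT3, a dotted line at the background bound of 6.87. ACO1, IDH1, IDH2, KGD1 and KGD2 stand higher on day 5 than on day 2 on every array of both strains, LSC2 is lowest on day 14, and CIT3 is highest on day 14.

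Citrate synthase joins acetyl-CoA and oxaloacetate and is the entry to the cycle. CIT1 encodes the main mitochondrial enzyme. In VIN13 its level was 12.34, 12.80 and 12.98 on day 2, 12.71, 12.80 and 12.82 on day 5, and 12.84, 12.39 and 12.58 on day 14. In BM45 it was 12.49 and 11.85 on day 2, 12.87, 12.88 and 12.85 on day 5, and 12.97, 12.89 and 12.96 on day 14. The VIN13 arrays of all 3 days overlapped, while every later BM45 array lay above the day 2 pair, of which replicate 4 was the lower. The fitted change from day 2 to day 5 was 0.07 ± 0.17 in VIN13 (limma, adjusted p = 0.773). In BM45, CIT1 rose by 0.70 ± 0.19 over those days (limma, adjusted p = 0.00584). Without BM45 day 2 replicate 4 the BM45 change was 0.38 and was not called, and with the ACT1 ratio added to the model it was 0.31 and was not called. On day 14 against day 2 the BM45 change was 0.77 ± 0.19 (limma, adjusted p = 0.00178), and it was 0.45 without that array and 0.35 with the covariate, not called in either.

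CIT3 encodes a second mitochondrial citrate synthase, which also acts on propionyl-CoA to make methylcitrate. It was the member with the largest rise late in fermentation in both strains. In VIN13 its level was 6.59, 6.72 and 6.52 on day 2, 6.94, 6.89 and 6.94 on day 5, and 8.02, 8.34 and 8.01 on day 14. The BM45 values were 7.49 and 7.17 on day 2, 7.21, 7.19 and 7.16 on day 5, and 9.71, 9.60 and 9.71 on day 14. All 3 VIN13 arrays of day 2 lay under the background bound of 6.87, which is the 95th percentile of the Schizosaccharomyces pombe probe sets, averaged over the arrays. From day 5 to day 14 CIT3 rose by 1.201 ± 0.105 in VIN13 (limma, adjusted p = 2.2e-06), a fold of 2.30 that starts from values just above the bound. Over those days it rose by 2.49 ± 0.11 in BM45 (limma, adjusted p = 6.8e-10), a fold of 5.60. Against the bound, VIN13 was at least 2.39-fold higher on day 14 than on day 2 (limma, adjusted p = 2.72e-08; measured means 8.12 and 6.61). The rise from day 2 to day 5 in VIN13 was at least 1.04-fold (limma, adjusted p = 0.0313; measured means 6.92 and 6.61) and lost its call in 10 of 29 alternatives. Leaving out VIN13 day 2 replicate 1 or 3, or any VIN13 array of day 5, ended that call, with changes of 0.27 to 0.33. In BM45 the change over those days was -0.14 ± 0.12 (limma, adjusted p = 0.309).

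CIT2, the peroxisomal citrate synthase and the classical target of the Rtg pathway, was measured beside them. Its level in VIN13 was 11.73, 12.04 and 11.76 on day 2, 12.18, 12.26 and 12.20 on day 5, and 12.79, 12.60 and 12.77 on day 14. BM45 arrays gave 12.35 and 11.97 on day 2, 12.40, 12.47 and 12.14 on day 5, and 13.19, 13.25 and 13.16 on day 14. CIT2 was highest on day 14 in both strains with no overlap with earlier arrays. On day 14 against day 5 it rose by 0.51 ± 0.12 in VIN13 (limma, adjusted p = 0.00328) and by 0.87 ± 0.12 in BM45 (limma, adjusted p = 1.37e-05).

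ACO1 encodes aconitase, the iron-sulfur enzyme that turns citrate into isocitrate and also helps to maintain mitochondrial DNA. In VIN13 its level was 11.77, 12.24 and 12.43 on day 2, 12.66, 12.74 and 12.89 on day 5, and 12.94, 12.90 and 12.79 on day 14. In BM45 it was 12.69 and 12.16 on day 2, 13.44, 13.41 and 13.40 on day 5, and 13.22, 13.17 and 13.22 on day 14. Every later array stood above those of day 2 in its strain, and day 14 stayed near day 5. ACO1 rose from day 2 to day 5 by 0.62 ± 0.15 in VIN13 (limma, adjusted p = 0.00539) and by 0.99 ± 0.17 in BM45 (limma, adjusted p = 0.000197). Without the 4 arrays that stood apart the changes were 0.37 in VIN13 and 0.72 in BM45, with replicate 2 alone left in BM45 on day 2. On day 14 against day 5 the change was 0.11 ± 0.15 in VIN13 and -0.21 ± 0.15 in BM45, neither called. The BM45 value for day 14 against day 2 of 0.77 ± 0.17 (limma, adjusted p = 0.000693) was 0.51 without BM45 day 2 replicate 4 and 0.48 with the ACT1 covariate, still called.

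IDH1 and IDH2 encode the subunits of the NAD-dependent isocitrate dehydrogenase of the mitochondrion, with the catalytic sites on Idh2 and regulatory sites on Idh1. In VIN13, IDH1 was at 10.84, 11.53 and 11.43 on day 2, 12.69, 12.62 and 12.24 on day 5, and 12.92, 12.34 and 12.57 on day 14. The BM45 level was 11.84 and 11.14 on day 2, 12.61, 12.63 and 12.70 on day 5, and 12.69, 12.55 and 12.64 on day 14. The lowest IDH1 value in each strain's day 2 group came from an array with a high ACT1 ratio. IDH1 rose from day 2 to day 5 by 1.25 ± 0.20 in VIN13, a fold of 2.39 (limma, adjusted p = 0.000281). In BM45 the rise was 1.16 ± 0.23, a fold of 2.23 (limma, adjusted p = 0.000611). With the ACT1 ratio added to the model the changes were 0.95 in VIN13 and 0.55 in BM45, both still called, and no change from day 5 to day 14 was called.

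IDH2 also rose from day 2 to day 5 in both strains, and in BM45 again by day 14. Its level in VIN13 was 12.22, 12.38 and 12.28 on day 2, 12.98, 12.92 and 12.91 on day 5, and 13.27, 13.05 and 13.08 on day 14. BM45 arrays gave 12.20 and 11.81 on day 2, 12.85, 12.90 and 12.92 on day 5, and 13.24, 13.24 and 13.26 on day 14. The 3 days did not overlap in either strain. From day 2 to day 5 IDH2 rose by 0.64 ± 0.10 in VIN13 (limma, adjusted p = 0.000187) and by 0.88 ± 0.11 in BM45 (limma, adjusted p = 1.34e-05). From day 5 to day 14 the change was 0.20 ± 0.10 in VIN13 (limma, adjusted p = 0.121), and IDH2 rose by 0.36 ± 0.10 in BM45 (limma, adjusted p = 0.00505). The log2 ratio of IDH1 over IDH2, set to 0 at the mean of the 5 day 2 arrays, was -0.21 ± 0.31, 0.41 ± 0.22 and 0.30 ± 0.18 on days 2, 5 and 14 in VIN13 (SD, n = 3 each). In BM45 it was 0.31 ± 0.22 (n = 2), 0.58 ± 0.03 and 0.20 ± 0.07 (n = 3 each), so that in BM45 day 5 lay above both other days, which overlapped, and in VIN13 day 2 lay below the later days, which overlapped. The NADP-dependent relatives of these subunits, which make 2-oxoglutarate outside the cycle, were measured too. The mitochondrial IDP1 rose by 0.61 ± 0.25 from day 2 to day 5 in BM45 (limma, adjusted p = 0.0493), but its change was 0.25 and not called without BM45 day 2 replicate 4, and 11 other single arrays also ended the call. Its change in VIN13 was 0.35 ± 0.22 (limma, adjusted p = 0.227). The cytosolic IDP2 changed by 0.40 ± 0.16 over those days in VIN13 (limma, adjusted p = 0.0593) and fell by 0.50 ± 0.18 in BM45 (limma, adjusted p = 0.0252). That BM45 change was -0.27 without BM45 day 2 replicate 4, -0.48 without day 5 replicate 2 and -0.47 without day 5 replicate 3, not called in any of these.

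The 2-oxoglutarate dehydrogenase complex turns 2-oxoglutarate into succinyl-CoA with 3 catalytic subunits: KGD1 encodes the decarboxylase, KGD2 the lipoic acid-bearing succinyltransferase, and LPD1 the dihydrolipoamide dehydrogenase that pyruvate dehydrogenase and glycine decarboxylase also use. KGD1 was at 11.20, 11.60 and 11.72 on day 2, 12.29, 12.26 and 12.13 on day 5, and 12.09, 11.71 and 11.83 on day 14 in VIN13. The BM45 level was 11.73 and 11.04 on day 2, 12.70, 12.77 and 12.79 on day 5, and 12.90, 12.79 and 12.89 on day 14. In BM45 the arrays of days 5 and 14 overlapped, while in VIN13 all arrays of day 14 lay below those of day 5. On day 5 against day 2 it rose by 0.72 ± 0.16 in VIN13 (limma, adjusted p = 0.00313) and by 1.37 ± 0.18 in BM45, a fold of 2.58 (limma, adjusted p = 2.09e-05). On day 14 against day 5 its change was -0.35 ± 0.16 in VIN13 (limma, adjusted p = 0.0969) and 0.11 ± 0.16 in BM45 (limma, adjusted p = 0.578). On day 14 against day 2 the VIN13 change of 0.37 ± 0.16 missed the threshold (limma, adjusted p = 0.0557), and KGD1 rose by 1.48 ± 0.18 in BM45, a fold of 2.78 (limma, adjusted p = 2.71e-06). The VIN13 increase was called in 10 of 31 alternatives, among them centring on the median gene, at 0.44. With the ACT1 ratio added to the model it was 0.15 and not called.

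KGD2 was at 11.67, 12.10 and 12.13 on day 2, 12.58, 12.58 and 12.44 on day 5, and 12.71, 12.47 and 12.56 on day 14 in VIN13. BM45 arrays stood at 11.97 and 11.86 on day 2, 12.68, 12.74 and 12.70 on day 5, and 12.93, 12.93 and 12.99 on day 14. The later arrays all lay above day 2 in both strains. KGD2 rose from day 2 to day 5 by 0.57 ± 0.11 in VIN13 (limma, adjusted p = 0.0013) and by 0.79 ± 0.13 in BM45 (limma, adjusted p = 0.000101). Against day 2, day 14 was higher by 0.61 ± 0.11 in VIN13 (limma, adjusted p = 0.000242) and by 1.03 ± 0.13 in BM45 (limma, adjusted p = 2.46e-06).

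LPD1 had smaller changes than the other catalytic subunits early on and a decrease in BM45 later. It was at 11.12, 11.60 and 11.50 on day 2, 11.80, 11.90 and 11.56 on day 5, and 11.79, 11.35 and 11.55 on day 14 in VIN13, where the days overlapped. In BM45 it was at 11.81 and 11.84 on day 2, 12.08, 12.10 and 12.13 on day 5, and 11.48, 11.36 and 11.36 on day 14, with no overlap between days. The change from day 2 to day 5 was 0.35 ± 0.13 in VIN13 (limma, adjusted p = 0.0534) and 0.28 ± 0.15 in BM45 (limma, adjusted p = 0.129). This increase was called in 11 of 31 alternatives in VIN13 and 3 of 31 in BM45. Among them was centring on the median gene, at 0.41 in VIN13 and 0.42 in BM45. On day 14 against day 5 it was -0.19 ± 0.13 in VIN13 (limma, adjusted p = 0.275), and LPD1 fell by 0.70 ± 0.13 in BM45 (limma, adjusted p = 0.000275). The BM45 call for day 14 against day 2, at -0.43 ± 0.15 (limma, adjusted p = 0.0174), was lost without BM45 day 2 replicate 4, at -0.41, and with centring on the median gene, at -0.09.

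Ratios between the subunits of the complex were followed over time. The log2 ratio of LPD1 over KGD2, set to 0 at the mean of the 5 day 2 arrays, was -0.19 ± 0.06 on day 2, -0.41 ± 0.10 on day 5 and -0.64 ± 0.10 on day 14 in VIN13 (SD, n = 3 each). The BM45 ratio was 0.28 ± 0.10 on day 2 (n = 2), -0.24 ± 0.03 on day 5 and -1.18 ± 0.09 on day 14 (n = 3 each). The 3 days did not overlap in either strain. The ratio of LPD1 over KGD1 was -0.22 ± 0.11, -0.59 ± 0.11 and -0.43 ± 0.05 on days 2, 5 and 14 in VIN13, where days 5 and 14 overlapped. It was 0.33 ± 0.51, -0.77 ± 0.03 and -1.58 ± 0.06 on those days in BM45, with no overlap. The ratio of KGD2 over KGD1 on day 14 was 0.21 ± 0.07 in VIN13 and -0.40 ± 0.06 in BM45, with no overlap between the strains. KGD4, the small subunit that tethers Lpd1 to the complex, rose by 0.30 ± 0.11 from day 2 to day 5 in VIN13 (limma, adjusted p = 0.0472), a call lost on leaving out any of 12 single arrays, at 0.23 to 0.34, and without the 4 arrays, at 0.16. Its change in BM45 was 0.24 ± 0.13 (limma, adjusted p = 0.116).

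**Figure D2:**
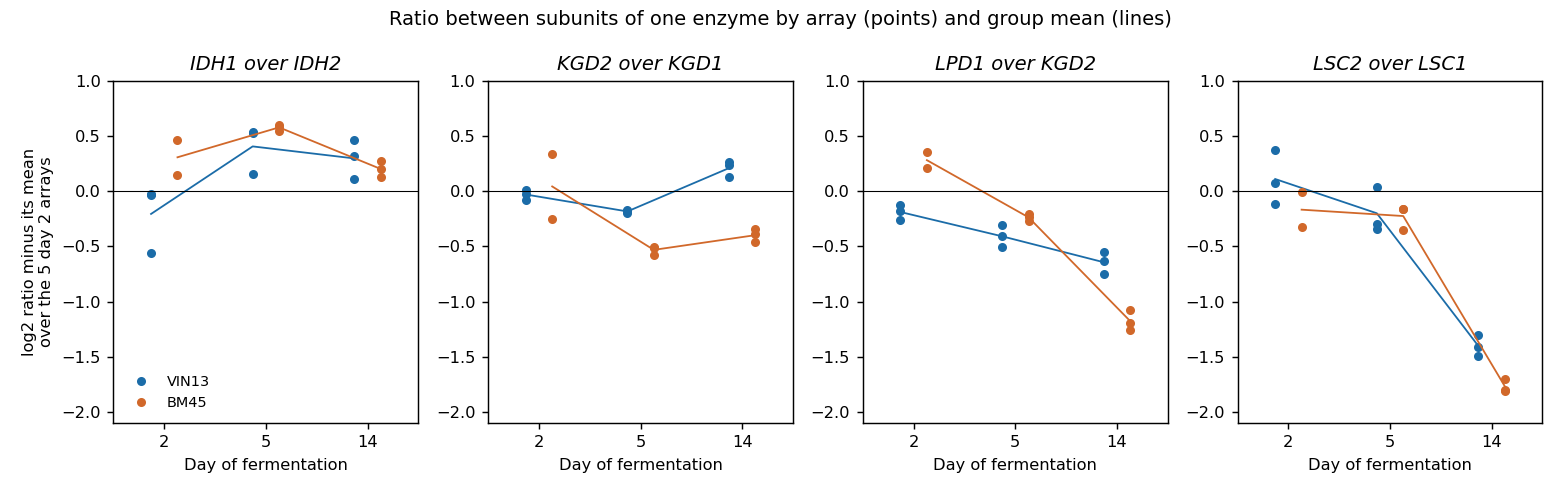
Log2 ratio between subunits of an enzyme on every array, by day of fermentation, each set to 0 at the mean of the 5 day 2 arrays, with VIN13 in blue, BM45 in orange and lines through the group means. LSC2 over LSC1 lies at -1.49 to -1.31 on the VIN13 arrays and -1.81 to -1.70 on the BM45 arrays of day 14, and LPD1 over KGD2 declines from day to day in both strains.

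Succinyl-CoA ligase splits succinyl-CoA with the formation of ATP and ends the oxidative steps. Its alpha subunit comes from LSC1 and its beta subunit from LSC2. LSC1 was at 11.26, 11.74 and 11.69 on day 2, 11.60, 11.66 and 11.45 on day 5, and 11.42, 10.85 and 10.97 on day 14 in VIN13. BM45 arrays stood at 11.90 and 11.65 on day 2, 11.51, 11.59 and 11.60 on day 5, and 11.07, 11.06 and 11.11 on day 14. Day 14 was the lowest day, with an overlap in VIN13 between day 14 replicate 1 and a day 2 array. From day 5 to day 14 LSC1 fell by 0.49 ± 0.15 in VIN13 (limma, adjusted p = 0.0147) and by 0.49 ± 0.15 in BM45 (limma, adjusted p = 0.00864). The VIN13 call was lost without VIN13 day 5 replicate 2, at -0.44, VIN13 day 14 replicate 3, at -0.37, or VIN13 day 14 replicate 4, at -0.43, and the BM45 call was lost with centring on the median gene, at -0.30. LSC1 fell between day 2 and day 14 by 0.48 ± 0.15 in VIN13 (limma, adjusted p = 0.00979), a call lost without VIN13 day 14 replicate 3, at -0.37, and by 0.70 ± 0.16 in BM45 (limma, adjusted p = 0.00126).

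LSC2 had the largest decrease of the 10 genes in both strains. It was at 11.09, 11.09 and 11.22 on day 2, 10.76, 10.78 and 10.95 on day 5, and 9.47, 8.81 and 9.12 on day 14 in VIN13. In BM45 it was at 11.03 and 11.11 on day 2, 10.81, 10.69 and 10.90 on day 5, and 8.72, 8.82 and 8.77 on day 14. Every day 14 array lay more than 1 log2 unit below every earlier array. From day 2 to day 5 the change was -0.31 ± 0.13 in VIN13 (limma, adjusted p = 0.0763) and -0.27 ± 0.14 in BM45 (limma, adjusted p = 0.126). LSC2 fell from day 5 to day 14 by 1.69 ± 0.13 in VIN13, a fold of 3.23 (limma, adjusted p = 1.09e-06). In BM45 it fell by 2.03 ± 0.13 over those days, a fold of 4.08 (limma, adjusted p = 1.45e-08). The log2 ratio of LSC2 over LSC1 was at 0.11 ± 0.25 on day 2, -0.20 ± 0.21 on day 5 and -1.40 ± 0.09 on day 14 in VIN13 (SD, n = 3 each). The BM45 ratio was -0.17 ± 0.23 on day 2 (n = 2), -0.22 ± 0.11 on day 5 and -1.77 ± 0.06 on day 14 (n = 3 each). The transcripts of the beta and alpha subunits of this enzyme therefore fell by unequal amounts, and only the day 14 ratios stood clear of the other days.

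**Figure D3:**
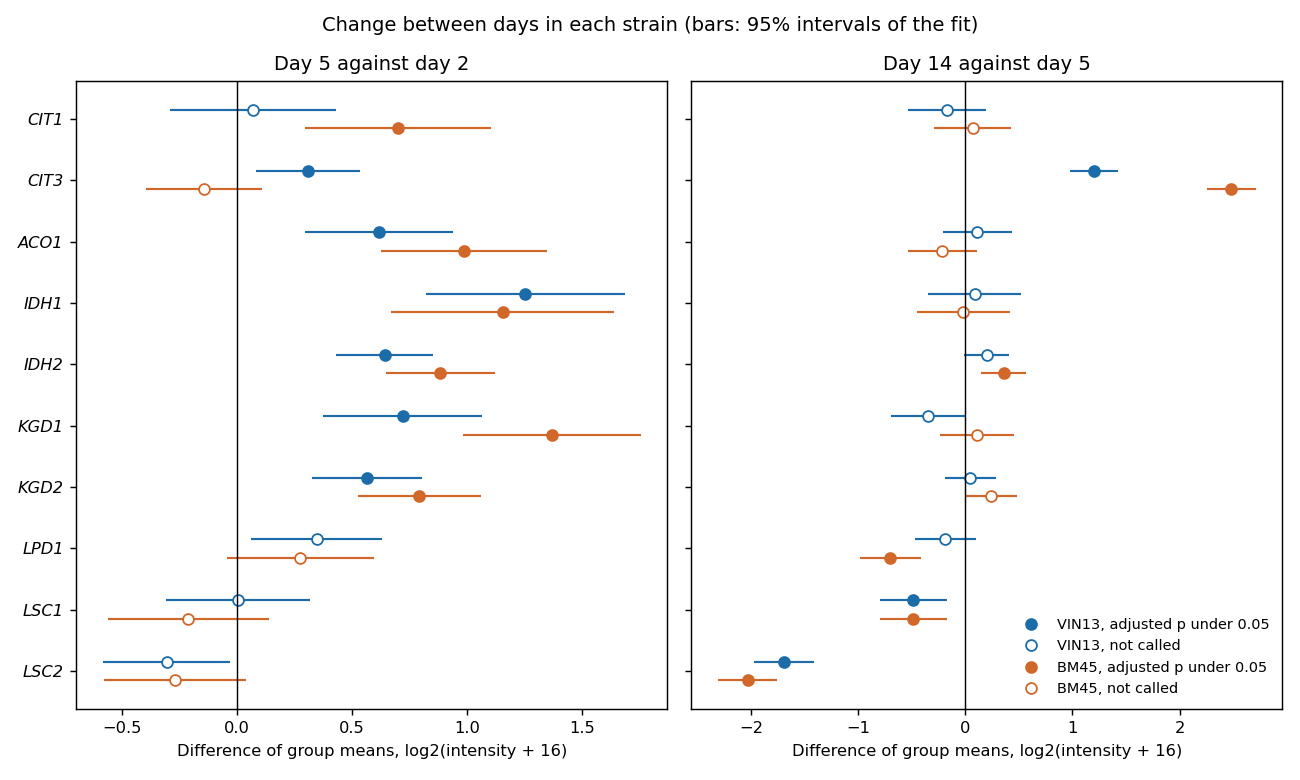
Change of each gene between days, as the difference of group means on the log2(intensity + 16) scale with 95% intervals of the fit, with VIN13 above BM45 for each gene and filled points where the adjusted p was under 0.05. On day 5 against day 2 the called changes are all increases, and from day 5 to day 14 CIT3 and LSC2 lie farthest from 0, in opposite directions.

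Ordered by the change from day 2 to day 14, CIT3 was at the top in BM45 with 2.34 ± 0.12, while its VIN13 rise has only a lower limit of 2.39-fold and so no fixed place beside IDH1, whose fold there was 2.54. LSC2 was at the bottom with -1.998 ± 0.13 in VIN13 and -2.30 ± 0.14 in BM45. IDH1 was at 1.34 ± 0.20 in VIN13 and 1.14 ± 0.23 in BM45, and IDH2 at 0.84 ± 0.10 in VIN13 and 1.24 ± 0.11 in BM45. The 95% intervals of IDH1 and IDH2 overlapped in each strain, so their order is not fixed by these arrays. Over the 6 group means, LSC1 and LSC2 correlated at 0.96, KGD2 with IDH2 at 0.95, KGD2 with IDH1 at 0.94, KGD1 with KGD2 at 0.93 and IDH1 with IDH2 at 0.92. CIT3 and LSC2 ran opposite, at -0.92, and LPD1 stood at 0.03 with KGD2 and 0.18 with KGD1. These correlations describe 6 points that come from the same arrays and growth phases.

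The strains were compared at each day. On day 2, 1 of 10 genes was higher and 2 were lower in VIN13 than in BM45, where 7.95% of all genes were higher and 23.3% lower. After centring on the median gene 16.3% of all genes were higher and 11.9% lower, and 2 of the 10 genes were higher and 1 lower. After quantile normalization 2 were higher and 2 lower, where 13.4% of all genes were higher and 15.4% lower. CIT3 was at least 1.38-fold lower in VIN13 (limma, adjusted p = 0.000484; measured means 6.61 in VIN13 and 7.33 in BM45). CIT1 was higher in VIN13 by 0.54 ± 0.19 (limma, adjusted p = 0.0435) and LPD1 was lower, at -0.42 ± 0.15 (limma, adjusted p = 0.0437). The CIT1 call was lost in 16 of 29 alternatives, among them leaving out BM45 day 2 replicate 4, at 0.21, VIN13 day 2 replicate 2, at 0.49, or replicate 3, at 0.40, any array of day 5, any BM45 array of day 14 or VIN13 day 14 replicate 4, each of these last at 0.54. Without BM45 day 2 replicate 2 it was 0.86 and called. The LPD1 call was lost in 17 of 29, among them leaving out either BM45 array of day 2, at -0.44 and -0.41, VIN13 day 2 replicate 1, at -0.28, or replicate 3, at -0.47, any BM45 array of day 5 or day 14, VIN13 day 5 replicate 1 or VIN13 day 14 replicate 4, each of these last at -0.42.

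On day 5 no gene of the 10 was higher and 2 were lower in VIN13 than in BM45, where 9.89% of all genes were higher and 15.3% lower, or 14.7% and 11.6% after centring. ACO1 averaged 12.77 ± 0.12 in VIN13 and 13.42 ± 0.02 in BM45 (SD, n = 3 each), a difference of -0.65 ± 0.15, 1.57-fold lower in VIN13 (limma, adjusted p = 0.00563). KGD1 averaged 12.23 ± 0.08 in VIN13 and 12.75 ± 0.05 in BM45, a difference of -0.53 ± 0.16, lower in VIN13 (limma, adjusted p = 0.0268). The arrays of the strains did not overlap for either gene. The KGD1 call was lost on leaving out any single one of the 6 arrays of day 5, at -0.56 to -0.48. LSC1 and LSC2 differed by 0.00 ± 0.15 and 0.03 ± 0.13, with 95% intervals of -0.31 to 0.32 and -0.25 to 0.31.

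On day 14, 1 gene of the 10 was higher and 3 were lower in VIN13 than in BM45, where 32.4% of all genes were higher and 21.1% lower. After centring on the median gene 27.4% of all genes were higher and 28.2% lower, and none of the 10 was higher and 5 were lower. After quantile normalization none was higher and 3 were lower, where 27.1% of all genes were higher and 24.8% lower. CIT3 averaged 8.12 ± 0.19 in VIN13 and 9.67 ± 0.06 in BM45 (SD, n = 3 each), a difference of -1.55 ± 0.11, 2.93-fold lower in VIN13 (limma, adjusted p = 3.97e-08). KGD1 averaged 11.88 ± 0.19 in VIN13 and 12.86 ± 0.06 in BM45, a difference of -0.98 ± 0.16, 1.97-fold lower in VIN13 (limma, adjusted p = 0.000153). KGD2 averaged 12.58 ± 0.12 in VIN13 and 12.95 ± 0.03 in BM45, a difference of -0.37 ± 0.11, lower in VIN13 (limma, adjusted p = 0.0121). The arrays of the strains did not overlap for these 3 genes. LSC2 was higher in VIN13 by 0.37 ± 0.13 (limma, adjusted p = 0.0266), with means of 9.14 ± 0.33 in VIN13 and 8.77 ± 0.05 in BM45 and overlapping arrays. That call was lost in 8 of 29 alternatives, among them leaving out VIN13 day 14 replicate 1, at 0.20, or replicate 4, at 0.37, BM45 day 14 replicate 1, at 0.34, or replicate 3, at 0.37, and centring on the median gene, at 0.27. IDH1 differed by -0.02 ± 0.20, with an interval of -0.45 to 0.42, and LSC1 by 0.00 ± 0.15, with an interval of -0.31 to 0.32.

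**Figure D4:**
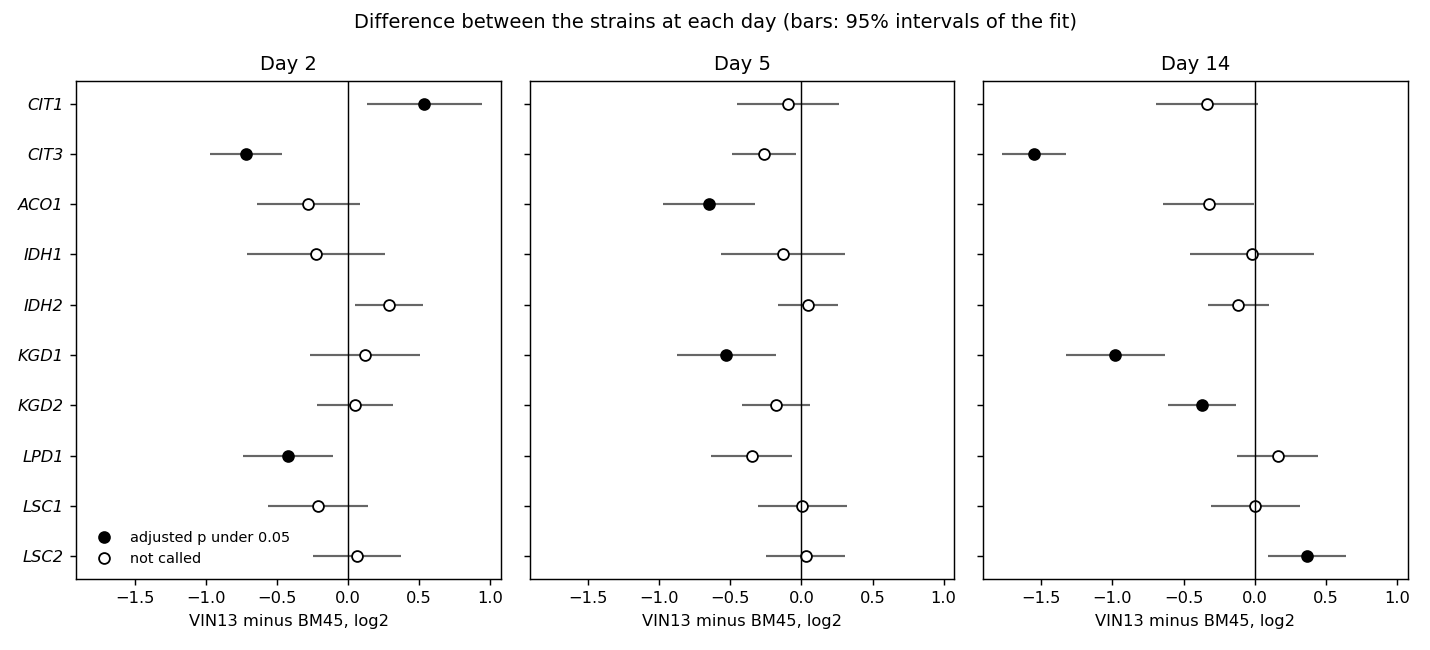
VIN13 minus BM45 for each gene on days 2, 5 and 14, on the log2(intensity + 16) scale, with 95% intervals of the fit and filled points where the adjusted p was under 0.05. CIT3 lies at -1.55 and KGD1 at -0.98 on day 14, and the points of IDH1 and LSC1 lie near 0 on days 5 and 14.

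Whether the strains differed in their change over time was tested directly, as the VIN13 change minus the BM45 change. For day 5 against day 2 none of the 10 genes was called by limma, 3 had an unadjusted p under 0.05, and 6.53% of all genes were higher and 2.13% lower, or 4.37% and 4.11% after centring. For day 14 against day 5, 1 of the 10 was higher and 1 was lower, where 23.8% of all genes were higher and 10.3% lower, or 15.7% and 18.7% after centring, when none of the 10 was higher and 4 were lower. The difference for CIT3 was -1.28 ± 0.15, with a smaller rise in VIN13 (limma, adjusted p = 8.87e-05). Its VIN13 mean on day 5 was 6.92, just above the background bound of 6.87, so that the size of this difference is uncertain. LPD1 differed by 0.51 ± 0.19 (limma, adjusted p = 0.0481), and this call was lost in 14 of 29 alternatives, 11 of them with a single array left out, at values of 0.40 to 0.55.

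For day 14 against day 2, 1 of the 10 genes was higher and 4 were lower in VIN13 than in BM45, where 30.6% of all genes were higher and 10.1% lower, or 17.6% and 22.0% after centring, when none of the 10 was higher and 5 were lower. The difference was -1.10 ± 0.24 for KGD1 (limma, adjusted p = 0.00266), with the smaller gain in VIN13. CIT3 is among the 4 lower calls, but it was under the background bound on day 2 in VIN13, so that its gain there is only a lower limit and no size of the difference is given. CIT1 differed by -0.87 ± 0.25 (limma, adjusted p = 0.0135), and by -0.55 without BM45 day 2 replicate 4, when it was not called. IDH2 differed by -0.40 ± 0.15 (limma, adjusted p = 0.0431) and LPD1 by 0.58 ± 0.20 (limma, adjusted p = 0.0303). These calls were lost in 17 and 9 of 29 alternatives: without BM45 day 2 replicate 4 the IDH2 value was -0.21 and the LPD1 value 0.57. The medians over the 10 genes were -0.13, -0.08 and -0.22 in these 3 tests, against 0.05, 0.15 and 0.21 for all genes.

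**Figure D5:**
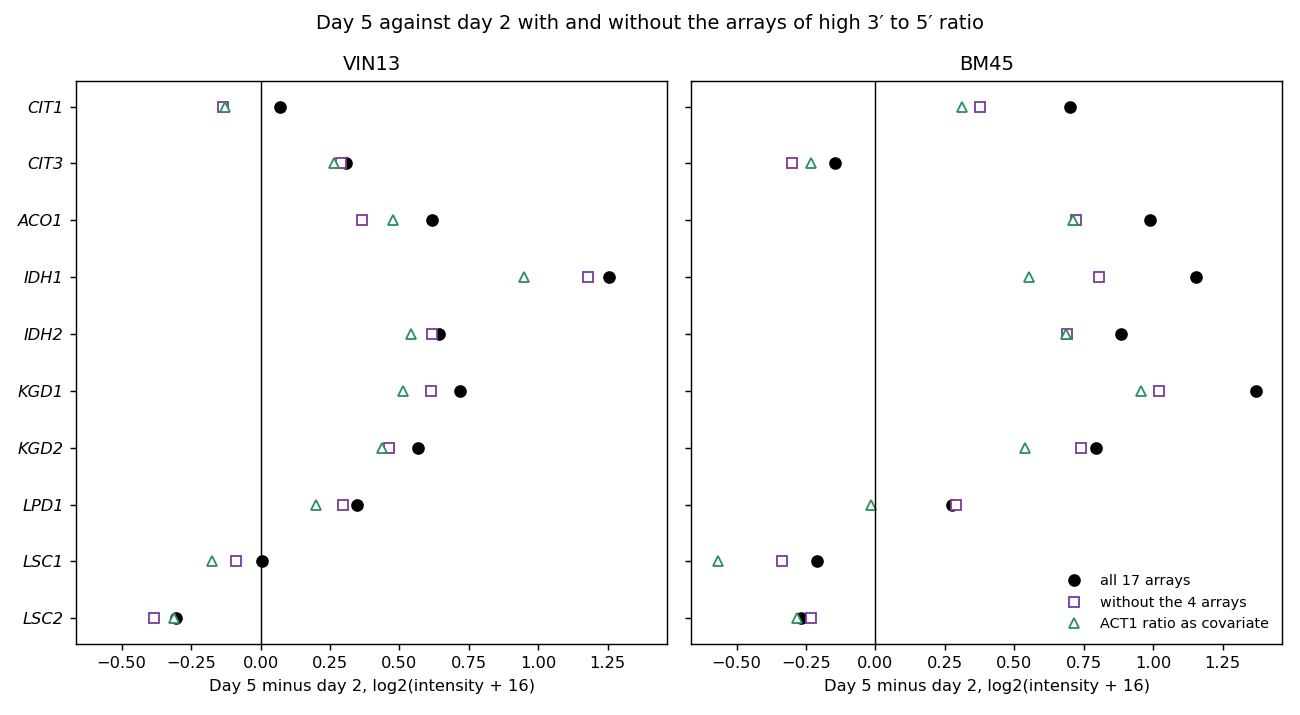
Change from day 2 to day 5 in VIN13 (left) and BM45 (right) on the log2(intensity + 16) scale, with all 17 arrays (filled circles), without the 4 arrays that stood apart (open squares), and with the log2 ACT1 ratio as a covariate (open triangles). IDH1, KGD1, ACO1, IDH2 and KGD2 stay above 0 in every setting, and the BM45 value of CIT1 is 0.70 with all arrays and 0.38 without the 4.

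Genes around the oxidative steps were described from lists chosen for their place in metabolism. The later steps of the cycle are succinate dehydrogenase (SDH1 to SDH4), fumarase (FUM1) and malate dehydrogenase (MDH1). From day 2 to day 5 all 6 rose in both strains, with medians of 0.63 in VIN13 and 0.83 in BM45, where 15.5% of all genes in VIN13 and 22.8% in BM45 rose. In VIN13, none of the 6 was called without VIN13 day 2 replicate 1 (median 0.36), 2 without day 5 replicate 1 and 1 without day 5 replicate 2, and in BM45 3 were called without BM45 day 2 replicate 4 (median 0.60). Without all 4 arrays that stood apart the medians were 0.43 in VIN13 and 0.60 in BM45. SDH2, the iron-sulfur subunit, rose most, by 0.90 in VIN13 (limma, adjusted p = 0.0257) and by 1.78 in BM45 (limma, adjusted p = 0.000375). Its VIN13 change was 0.49 without VIN13 day 2 replicate 1, 0.93 without day 5 replicate 1 and 0.87 without day 5 replicate 2, not called in any of these, and its BM45 change was 1.16 without BM45 day 2 replicate 4, still called. From day 5 to day 14 none rose, and 1 of 6 in VIN13 and 2 of 6 in BM45 fell, where 24.5% and 43.1% of all genes fell. The BM45 count was 1 without any single BM45 array of day 5 or 14. FUM1 fell by 0.80 in VIN13 (limma, adjusted p = 0.000678), and SDH3 fell by 0.63 in BM45 (limma, adjusted p = 0.000455).

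Pyruvate dehydrogenase feeds acetyl-CoA to citrate synthase and shares Lpd1 with the 2-oxoglutarate dehydrogenase complex. Of the 8 genes of its subunits, kinases and phosphatases, 6 fell from day 5 to day 14 in each strain and none rose, with medians of -0.41 in VIN13 and -0.64 in BM45, where 24.5% of all genes in VIN13 and 43.1% in BM45 fell. Without VIN13 day 14 replicate 3, 3 fell in VIN13. The core subunit LAT1 fell by 0.68 in VIN13 (limma, adjusted p = 0.000159) and by 0.79 in BM45 (limma, adjusted p = 1.03e-05). PTC5, a phosphatase that activates the complex, fell by 0.99 in VIN13 (limma, adjusted p = 1.05e-05) and by 1.69 in BM45 (limma, adjusted p = 1.22e-08). The kinase gene PKP2 fell as well, by 0.29 in VIN13 (limma, adjusted p = 0.044) and by 1.44 in BM45 (limma, adjusted p = 5.44e-08). Among 7 genes of lipoic acid attachment, glycine cleavage and KGD4, 4 fell in VIN13 and 3 fell in BM45 over those days, while none rose in VIN13 and 1 rose in BM45. The BM45 share of falls lies near the 43.1% of all genes, and the VIN13 background is 24.5%. LIP2, the octanoyltransferase that starts the attachment of lipoic acid, fell by 0.86 in VIN13 (limma, adjusted p = 0.000328) and by 1.86 in BM45 (limma, adjusted p = 7.47e-08). The largest strain difference of that list was in GCV1, a glycine cleavage subunit, which was higher in VIN13 on day 2 by 2.43 (limma, adjusted p = 1.19e-06).

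Of the 8 measured genes of the glyoxylate cycle and the cytosolic and peroxisomal relatives, 3 rose and none fell in VIN13, and 4 rose and 1 fell in BM45, on day 5 against day 2. The shares of all genes were 15.5% up and 22.2% down in VIN13 and 22.8% up and 33.9% down in BM45. In BM45 2 rose without BM45 day 2 replicate 4 or any single BM45 array of day 5, and in VIN13 5 rose without either BM45 array of day 2. The peroxisomal isocitrate dehydrogenase IDP3 rose by 0.65 in VIN13 (limma, adjusted p = 0.00531) and by 1.08 in BM45 (limma, adjusted p = 0.000134). Of 13 genes that use or carry 2-oxoglutarate and citrate, 3 rose and 1 fell in VIN13, and 2 rose and 7 fell in BM45, over those days, beside the same shares of all genes. Without BM45 day 2 replicate 4, 1 rose and 4 fell in BM45. The glutamate dehydrogenase GDH1, which takes 2-oxoglutarate to glutamate, fell by 1.33 in BM45 (limma, adjusted p = 0.000239), and its change differed between the strains by 1.80 (limma, adjusted p = 0.00402). YHM2, a mitochondrial carrier of citrate and 2-oxoglutarate, fell by 0.36 in VIN13 (limma, adjusted p = 0.0175) and by 1.33 in BM45 (limma, adjusted p = 6.87e-07). Its VIN13 call was lost without VIN13 day 2 replicate 1, at -0.31, or day 5 replicate 1, at -0.33. Of 8 genes of pyruvate carboxylase and mitochondrial carriers, 4 rose and 1 fell in VIN13, and 3 rose and 3 fell in BM45, which for BM45 is near the shares of all genes. Pyruvate carboxylase refills oxaloacetate, and its genes PYC1 and PYC2 went different ways. PYC1 fell by 0.37 in VIN13 (limma, adjusted p = 0.00859) and by 1.03 in BM45 (limma, adjusted p = 2.95e-06). PYC2 rose by 0.51 in VIN13 (limma, adjusted p = 0.000901), and its change in BM45 was 0.004 (limma, adjusted p = 0.981).

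Of 13 regulators, 5 rose and 2 fell in VIN13, and 6 rose and 2 fell in BM45, from day 2 to day 5, where 15.5% of all genes rose and 22.2% fell in VIN13 and 22.8% rose and 33.9% fell in BM45. The number that rose was 3 in VIN13 without VIN13 day 5 replicate 1 or 2, and 3 in BM45 without BM45 day 2 replicate 4. HAP4, the activating subunit of the Hap complex, was at 11.001, 12.15 and 11.93 on day 2, 12.87, 13.02 and 12.40 on day 5, and 13.41, 13.50 and 13.50 on day 14 in VIN13. BM45 arrays stood at 12.004 and 11.27 on day 2, 13.05, 13.24 and 13.01 on day 5, and 13.45, 13.52 and 13.43 on day 14. The days did not overlap in either strain. HAP4 rose from day 2 to day 14 by 1.77 ± 0.25 in VIN13 (limma, adjusted p = 1.94e-05) and by 1.83 ± 0.28 in BM45 (limma, adjusted p = 2.24e-05). RTG1 lay under the background bound on every day 2 array, and on day 14 it was at 7.50, 7.22 and 7.32 in VIN13 and at 9.10, 9.31 and 9.51 in BM45. Against the bound, day 14 was at least 1.40-fold higher than day 2 in VIN13 (limma, adjusted p = 0.000731) and at least 5.43-fold higher in BM45 (limma, adjusted p = 7.75e-06). On day 14 RTG1 was lower in VIN13 than in BM45, at a difference of -1.96 ± 0.43 (limma, adjusted p = 0.00142). Its partner RTG3 changed by 0.35 ± 0.18 from day 2 to day 14 in VIN13 (limma, adjusted p = 0.0982) and by 0.30 ± 0.20 in BM45 (limma, adjusted p = 0.188).

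The 10 genes, each centred on its own mean and averaged, stood at -0.34, 0.08 and -0.04 on days 2, 5 and 14 in VIN13 and at -0.26, 0.29 and 0.27 in BM45. Among 3274 other genes whose group means spanned at least 1 on the log2 scale, those closest to this profile over the 6 group means were SSA3 (Pearson r = 0.99), FMP45 (0.99), SDH4 (0.99), SIP2 (0.99), COX19 (0.98), COX20 (0.98), ICS2 (0.98) and YAR066W (0.98). SDH4 is the only citric acid cycle gene of these 8, and the ranking is a description over 6 points that come from the same arrays.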

How the data were processed

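The arrays were Affymetrix yeast arrays, read with a biotin label on total RNA, whose probe sets come from S. cerevisiae and S. pombe. Per the submitters' processing notes, the authors used Affymetrix Expression Console, and the deposited values are linear intensities, 1 per probe set and array. The version, the summarisation algorithm and the normalization were not given in the sources used here. Of 10928 probe sets the annotation listed 7245, of which 5498 gave 5449 S. cerevisiae genes. The brightest probe set stood for the 47 genes with several, and 12 symbols were updated.

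The log2 of each deposited intensity plus 16 was used, without renormalizing or filtering. The background bound, an intensity of 100.7, averages over arrays the 95th percentile of log2 values of 1746 S. pombe probe sets. One model with a mean per strain and day of all 17 arrays used lmFit and eBayes (limma 3.58.1, R 4.3.3), with 11 residual and 3.806 prior degrees of freedom, and 12 two-sided contrasts were adjusted by Benjamini and Hochberg over all genes. The fit was tried on simulated data with independent noise for each gene and array. Such data cannot show how it behaves where arrays deviate together. Alternatives changed the pseudocount, the scaling, the threshold, the weighting of arrays, the arrays included, a replicate block and an ACT1 covariate, 1 at a time. Python 3.11.15 made the tables. For a group under the bound, a fold is given as a lower limit, the bound replacing any lower value of that group.

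The 10 genes and the lists beside them were chosen with earlier results of these data known. Named were all 10 genes, up to 4 called genes of a list with the largest change, a fixed set of paralogs and regulators, and the 8 genes of most similar profile. Promoter and protein sequences were not analysed here.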

Additional observations from a re-analysis of the deposited data

Results flagged for a closer look

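The changes over time of some genes differed between the strains by a test of the difference itself, given here as the VIN13 change minus the BM45 change with the adjusted p of limma. For day 14 against day 2 these were CIT1 at -0.87 (adjusted p = 0.0135), IDH2 at -0.40 (adjusted p = 0.0431), KGD1 at -1.10 (adjusted p = 0.00266) and LPD1 at 0.58 (adjusted p = 0.0303), all by limma. Between day 5 and day 14 they were CIT3 at -1.28 (limma, adjusted p = 8.87e-05) and LPD1 at 0.51 (limma, adjusted p = 0.0481). For day 14 against day 2 the calls of CIT1, IDH2 and LPD1 were lost in 2, 17 and 9 of 29 alternatives. The LPD1 call for day 14 against day 5 was lost in 14 of 29. Of all genes 30.6% were higher and 10.1% lower for day 14 against day 2. For day 14 against day 5 the shares were 23.8% and 10.3%. The cytosolic isocitrate dehydrogenase gene IDP2, a relative outside the 10 genes, differed by 0.90 for day 5 against day 2 (limma, adjusted p = 0.0314) and by 1.13 for day 14 against day 2 (limma, adjusted p = 0.00188). The day 5 against day 2 call of IDP2 was lost without BM45 day 2 replicate 4, at 0.67, and without 6 other single arrays, at 0.74 to 0.93.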

How the results depend on the processing

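Over 120 changes of the 10 genes and 31 alternatives, 3720 values in all, none reversed a called change, 161 lost a call and 126 gained one. Of 53 called changes, 37 were kept in all 29 alternatives other than the stricter thresholds. The causes of the shifts were not tested.

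The counts of the 10 genes called moved as follows. Shares of all genes stand beside the counts only for settings where they were made. Elsewhere in this section a count shows how calls depend on the setting and nothing particular to the 10 genes. With an added limit of 2-fold they were 2, 2 and 6 in BM45 for day 5 against day 2, day 14 against day 5 and day 14 against day 2, and 1 and 3 in VIN13 for day 5 and day 14 against day 2. Between the strains they were 0, 0 and 1 on days 2, 5 and 14, and for the differences of the day 14 changes, against day 5 and against day 2, 1 and 1. At an adjusted p under 0.01 (limma) the counts were 1, 1 and 2 between the strains on days 2, 5 and 14, and 1 and 2 for those differences. With array weights, whose estimation stopped before its tolerance, they were 6 for VIN13 day 14 against day 5, 1 and 5 between the strains on days 2 and 5, and 7 for the difference of the day 14 against day 5 changes. Without the 4 arrays the counts moved too. They are not given, since replicate 2 was the only BM45 array left on day 2. With only the arrays compared in the fit the counts were 0 and 4 between the strains on days 2 and 5. For the differences of the day 14 changes against day 5 and day 2 they were 4 and 3. The ACT1 covariate gave 5 between the strains on day 2, where 10.3% of all genes were higher and 30.4% lower. A pseudocount of 1 gave 1 for the difference of the day 14 against day 5 changes. Quantile normalization gave 1 for the difference of the day 5 against day 2 changes, where 5.43% of all genes were higher and 5.08% lower. Median centring gave 1 for that same difference, where the shares were 4.37% and 4.11%. It gave 4 for the difference of the day 14 against day 5 changes, where the shares were 15.7% and 18.7%.

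With 1 array left out in turn the count was 1 to 4 between the strains on day 2, 1 to 3 on day 5, 0 to 4 for the difference of the day 5 against day 2 changes, 1 to 3 for day 14 against day 5 and 2 to 5 for day 14 against day 2. The count of 4 for day 5 against day 2 came without VIN13 day 2 replicate 1, 3 came without BM45 day 2 replicate 2, and 1 came without BM45 day 2 replicate 4 or VIN13 day 14 replicate 3. For day 14 against day 2 the count was 2 without BM45 day 2 replicate 4 and 3 without BM45 day 14 replicate 2 or 3. For day 14 against day 5 it was 1 without VIN13 day 2 replicate 3, any BM45 array of day 5 or 14, VIN13 day 5 replicate 1 or 3, or VIN13 day 14 replicate 1 or 4. Between the strains it was 1 on day 2 without VIN13 day 2 replicate 3, any BM45 array of day 5 or 14, VIN13 day 5 replicate 1 or VIN13 day 14 replicate 4, and 1 on day 5 without any single array of that day.

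Deviations from the group means were correlated between arrays of different groups. For 31 pairs with the same replicate number in the titles the range was -0.38 to 0.64, with a median of 0.02 and 15 over 0.1. For 89 pairs with different numbers it was -0.65 to 0.55, with a median of -0.02 and 32 over 0.1. The 4 arrays that stood apart correlated with each other at 0.30 to 0.57. These values cannot settle whether the replicate numbers pair the arrays. With the number as a replicate block the count was 1 between the strains on day 2, where 5.58% of all genes were higher and 21.8% lower. For the difference of the day 14 against day 5 changes it was 1, where the shares were 25.7% and 8.88%. For that of the day 14 against day 2 changes it was 2, where they were 28.7% and 4.77%. The median change of all genes was 0.00 after median centring and -0.19 without it for BM45 day 14 against day 5, and 0.09 and -0.24 for BM45 day 14 against day 2. With quantile normalization increases made up 46.5% to 53.8% of all calls over the 12 comparisons. For genes and lists around the 10, leaving out single arrays and the 4 arrays was chosen after seeing the data.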
